A study of Mus musculus with 12 samples.

Results

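Signaling through the kinase ERK is held in check by genes that act as feedback brakes, and 9 of them were followed here in cardiac fibroblasts reprogrammed with *Sox17* and *Erg*. They were taken by symbol from the 35727 Ensembl genes of the deposited bulk RNAseq table. The Sprouty family was represented by *Spry1*, *Spry2* and *Spry4*, the Spred family by *Spred1*, *Spred2* and *Spred3*, and the dual-specificity phosphatases by *Dusp4*, *Dusp5* and *Dusp6*. All 9 were measured in every library, and all 9 passed the filter on low counts.

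Growth factor receptors such as the FGF and VEGF receptors pass their signal through Ras, RAF, MEK and ERK. ERK activity raises the transcription of genes whose products then dampen the same cascade, so their transcripts are widely used as a readout of it. Sprouty proteins are docking proteins that act near the receptor and RAF, Spred proteins bring the Ras inactivator neurofibromin to the membrane, and DUSP4, DUSP5 and DUSP6 remove phosphate from MAP kinases. In the vascular wall, Sprouty proteins are known as brakes on FGF and VEGF driven sprouting.

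Fibroblasts came from pooled hearts of neonatal mice and were depleted of PECAM1-positive cells and enriched for THY1 before infection. The study's methods name C57BL/6J mice or *Tcf21*-CreERT2 mice bred with *Rosa26*-tdTomato as the source and do not state which of them gave these libraries. The *Sox17*-*Erg* samples, which GEO's labels call iEC, received *Sox17* and *Erg* retroviruses in a pMX backbone, and the control samples, labelled as fibroblasts, carry pMX in their library names. Both were cultured in EGM2, an endothelial growth medium, and sampled at Day 3, at Day 7 and after 4 weeks, which gave 6 groups of 2 libraries. EGM2 contains growth factors that activate ERK, and the control cells received it too. The sources used here do not say that the 2 libraries of a group came from separate isolations, so p-values measure the spread between these libraries, which may be technical. The labels name no sort for reprogrammed cells, so a lower count in bulk RNA can come from fewer cells of a type or from less RNA per cell, which cannot be told apart here.

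Library totals ran from 19011635 to 41240449 counts. *Sox17* was at 0 to 0.416 CPM (counts scaled to library size) in the control libraries and at 432 to 1036 CPM in the *Sox17*-*Erg* libraries, and *Erg* was at 0.0728 to 2.27 CPM and 17.1 to 65.2 CPM, so the 12 libraries matched their labels. These counts do not separate retroviral from endogenous transcripts. Summed over 8 endothelial markers, the control libraries held 16.3 to 56.7 CPM and the *Sox17*-*Erg* libraries 309 to 704 CPM, with 4, 5 and 6 of the 7 markers tested higher at Day 3, Day 7 and 4 weeks. *Cldn5* had no count in 4 libraries and at most 10 counts in any. Summed fibroblast markers lay between 12500 and 35800 CPM in control and between 10100 and 39100 CPM in *Sox17*-*Erg* libraries. Most of this sum was *Col1a1* and *Col1a2*, at 14010 and 9198 of 29800 CPM in control replicate 1 of Day 3. Of the 8 fibroblast markers 1, 3 and 4 were called lower at Day 3, Day 7 and 4 weeks, and 0, 1 and 1 higher. Mesothelial markers summed to 295 to 1450 CPM in control and 130 to 321 CPM in *Sox17*-*Erg* libraries and cardiomyocyte markers to 645 to 1530 CPM and 331 to 684 CPM, with 6 of 6 and 5 of 6 lower at 4 weeks. *Tnnt2*, the cardiomyocyte marker not called at 4 weeks, made up most of that sum, at 1431 of 1530 CPM in control replicate 1 of Day 3. Of the 6 macrophage markers, which summed to 44.3 to 1190 CPM in control and 58.1 to 403 CPM in *Sox17*-*Erg* libraries, 0 were called at any time point by edgeR or DESeq2, and 0 had an unadjusted p under 0.05. Of 6 smooth muscle and pericyte markers, which summed to 253 to 649 CPM in control and 185 to 551 CPM in *Sox17*-*Erg* libraries, 4 were higher and 2 lower at 4 weeks. Cycling markers summed to 30.6 to 418 CPM in control and 78.3 to 1090 CPM in *Sox17*-*Erg* libraries, with 5 of 6 higher at 4 weeks. The part of these other cell types and of cycling in the values below was not tested.

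The promoters of *Spry1*, *Spry2*, *Spred3* and *Dusp6* are shown because the first 3 genes changed in the comparisons below and the fourth belongs to the family that was not called. ERG belongs to the ETS factors, which bind around the core GGAA, and SOX17 binds around AACAAT. The 250 bases before each RefSeq start on GRCm38.p6 are given 5′ to 3′ on the strand of the gene, with each GGAA, or TTCC where the core lies on the other strand, in capitals. The windows are chr3:37639697-37639946 on the plus strand for *Spry1*, chr14:105896820-105897069 on the minus strand for *Spry2*, chr7:29168648-29168897 on the minus strand for *Spred3* and chr10:99262981-99263230 on the plus strand for *Dusp6*.
Spry1: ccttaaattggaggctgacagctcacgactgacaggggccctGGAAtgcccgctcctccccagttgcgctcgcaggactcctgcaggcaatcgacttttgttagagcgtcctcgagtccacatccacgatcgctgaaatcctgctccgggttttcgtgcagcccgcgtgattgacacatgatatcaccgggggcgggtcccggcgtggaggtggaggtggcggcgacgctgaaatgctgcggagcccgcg
Spry2: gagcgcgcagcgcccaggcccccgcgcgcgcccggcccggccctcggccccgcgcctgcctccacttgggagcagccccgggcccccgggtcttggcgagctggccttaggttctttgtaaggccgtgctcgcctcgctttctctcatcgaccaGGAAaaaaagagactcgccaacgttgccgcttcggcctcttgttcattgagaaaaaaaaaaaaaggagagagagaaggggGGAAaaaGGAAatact
Spred3: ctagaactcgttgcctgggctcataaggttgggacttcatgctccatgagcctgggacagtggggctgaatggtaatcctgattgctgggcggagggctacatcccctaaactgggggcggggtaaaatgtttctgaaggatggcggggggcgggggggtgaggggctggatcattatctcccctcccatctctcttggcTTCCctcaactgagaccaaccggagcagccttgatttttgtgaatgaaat
Dusp6: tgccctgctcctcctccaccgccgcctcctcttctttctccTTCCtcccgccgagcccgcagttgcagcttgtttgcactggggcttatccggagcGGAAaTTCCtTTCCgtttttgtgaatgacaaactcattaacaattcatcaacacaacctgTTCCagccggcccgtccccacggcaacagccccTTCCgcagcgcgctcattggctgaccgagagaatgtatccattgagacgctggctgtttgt
The core stood 1 time in the *Spry1* window, 3 times in *Spry2*, 1 time in *Spred3* and 6 times in *Dusp6*. In the windows not shown it stood 4 times in *Spred1*, 7 times in *Spred2* and 3 times in *Dusp5*. Over the 32851 promoter windows of this length in RefSeq, 93.4% held the core and the median was 3 matches, so that *Spry2* was at the median, *Spry1* and *Spred3* were below it and *Dusp6* was above it. The longer forms CCGGAA and AGGAAG, which contain the core, the SOX letters AACAAT, the AP-1 letters TGANTCA, the CRE letters TGACGT and the CArG box of SRF, searched on both strands, were absent from the *Spry1*, *Spry2*, *Spred1* and *Spred3* windows. The *Dusp6* window held AGGAAG 1 time and AACAAT 1 time, which 29.5% and 9.42% of all windows hold. The *Dusp5* window held 1 AGGAAG, 1 TGACGT and 2 CArG boxes, and the *Spred2* window held TGACGT 1 time and AGGAAG 2 times. The CArG box stood in 1.47% of all windows, TGACGT in 6.47%, CCGGAA in 12% and TGANTCA in 6.75%. A match is a string of letters and not a site, and the *Spred3* window lies inside the longer gene span of the GENCODE M21 annotation. *Spry4* and *Dusp4* had no entry.

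Expression of the 9 genes in *Sox17*-*Erg* was then compared with control at each time point. *Spry2* was called lower at all 3 times, *Spry4* at Day 7 and 4 weeks and *Spry1* at 4 weeks, and *Spred3* was called higher at Day 7 and 4 weeks. In the fit of all 12 libraries without a replicate block, the other 5 genes were not called at any of the 3 times. A replicate block within each time point added calls, which are given below. A gene is called where the p of edgeR's quasi-likelihood test, adjusted by Benjamini-Hochberg over the 15506 genes tested, is under 0.05, and log2 fold changes are given with their standard error (SE). At Day 3, 1 of the 9 was lower, where 5.13% of all genes were lower, and 0 were higher, where 7.19% of all genes were. DESeq2 also called 0 of them higher, and 0 had an unadjusted p under 0.05 in that direction. With upper-quartile factors in place of TMM, 824 of all genes were higher and 1013 lower at Day 3, in place of 1115 and 795. At Day 7, 2 of 9 were lower against 7.93% of all genes, and 1 was higher against 9.48%. At 4 weeks, 3 of 9 were lower against 11% of all genes, and 1 was higher against 11.9%. The median log2 fold change of the 9 genes was -0.092, 0.038 and 0.156 at the 3 times, and that of all genes 0.010, 0.006 and -0.014, and the 9 genes moved in both directions. Without regard to the test, both *Sox17*-*Erg* libraries lay below both control libraries for 5 of the 9 at Day 3, 3 at Day 7 and 4 at 4 weeks, beside 29.9%, 28.8% and 32.5% of all genes. They lay above both for 2 of the 9 at each time, beside 34.1%, 29% and 30.3%. The 3 comparisons use separate libraries at each time, while comparisons over time reuse them.

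**Figure D1:**
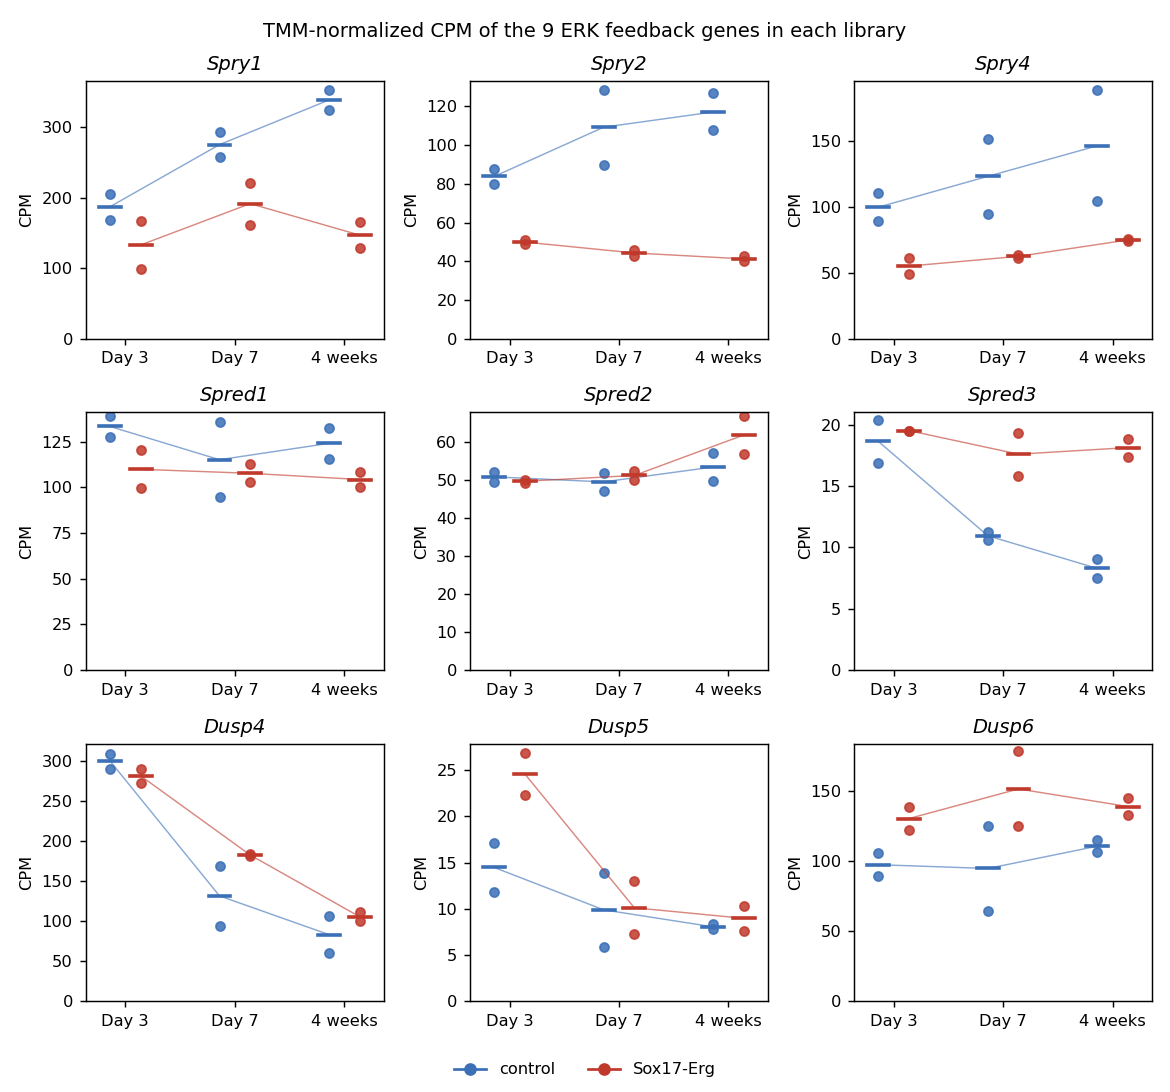
TMM-normalized CPM (vertical axes, from 0) of the 9 genes at the 3 time points (horizontal axes), with control in blue and *Sox17*-*Erg* in red. Each point is 1 library, each bar the mean of 2 libraries, and thin lines join the means. Both *Sox17*-*Erg* points lie below both control points at every time for *Spry1*, *Spry2* and *Spry4*, while the mean of *Spred3* reached 8.28 CPM in control at 4 weeks and stayed at 17.6 to 19.5 CPM in *Sox17*-*Erg*.

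Among the Sprouty genes, *Spry2* had the most negative fold change at Day 7 and 4 weeks. *Spry2* (ENSMUSG00000022114, chr14:105891947-105896819, minus strand, GRCm38) inhibits the cascade below FGF receptors. The control libraries held 87.8 and 79.9 CPM at Day 3, 129 and 89.9 CPM at Day 7, and 108 and 127 CPM at 4 weeks. The *Sox17*-*Erg* libraries held 51.1 and 48.8 CPM at Day 3, 42.6 and 46.0 CPM at Day 7, and 39.9 and 42.6 CPM at 4 weeks. All 6 *Sox17*-*Erg* libraries lay below all 6 control libraries. The log2 fold change was -0.75 (SE 0.16, edgeR adjusted p = 0.022) at Day 3, -1.30 (SE 0.17, edgeR adjusted p = 0.0012) at Day 7 and -1.50 (SE 0.17, edgeR adjusted p = 0.00033) at 4 weeks, a 2.84-fold lower level. The call at Day 3 was lost when any 1 of the 4 Day 3 libraries was left out, with adjusted p from 0.081 to 0.14, and the calls at Day 7 and 4 weeks were kept without each of the 12 libraries in turn. Tested as an interaction, the effect at 4 weeks differed from that at Day 3 by -0.76 (SE 0.23), which did not pass the threshold (edgeR adjusted p = 0.13).

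*Spry1* was the Sprouty gene with the highest level per length in every group. *Spry1* (ENSMUSG00000037211, chr3:37639947-37644598, plus strand) is known for limiting RET and FGF signaling in the embryo. Control libraries held 169 and 205 CPM of it at Day 3, 257 and 293 CPM at Day 7, and 324 and 352 CPM at 4 weeks. *Sox17*-*Erg* libraries held 98.3 and 167 CPM at Day 3, 162 and 221 CPM at Day 7, and 129 and 165 CPM at 4 weeks. At each time both *Sox17*-*Erg* libraries were below both control libraries, narrowly so at Day 3. The fold change passed the test at 4 weeks only, at -1.20 on the log2 scale (SE 0.26, edgeR adjusted p = 0.0096), a 2.30-fold lower level. At Day 3 it was -0.49 (SE 0.25, edgeR adjusted p = 0.23) and at Day 7 -0.52 (SE 0.25, edgeR adjusted p = 0.19), and the effect at 4 weeks was not shown to differ from that at Day 3 (difference -0.71, SE 0.36, edgeR adjusted p = 0.37). Without *Sox17*-*Erg* replicate 1 the 4-week fold change was -1.05 and was no longer called (edgeR adjusted p = 0.083). Within control, *Spry1* rose by 0.85 (SE 0.26, edgeR adjusted p = 0.036) from Day 3 to 4 weeks, and within *Sox17*-*Erg* the change was 0.14 (SE 0.25, edgeR adjusted p = 0.71). The rise in control lost its call without either control library of Day 3 or of 4 weeks and with upper-quartile factors.

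*Spry4* (ENSMUSG00000024427, chr18:38586247-38601415, minus strand), which in endothelial cells is known to restrain VEGF signaling through Ras, had a similar fold change but a wider spread in control. Its control libraries held 89.1 and 110 CPM at Day 3, 152 and 94.4 CPM at Day 7, and 104 and 188 CPM at 4 weeks. In the *Sox17*-*Erg* libraries the values were 49.2 and 60.8, 61.1 and 63.7, and 74.1 and 75.6 CPM. The replicates of control thus differed by far more than those of *Sox17*-*Erg* at Day 7 and 4 weeks, and the groups still did not overlap at any time. The log2 fold change was -0.86 (SE 0.29, edgeR adjusted p = 0.084) at Day 3, -0.98 (SE 0.29, edgeR adjusted p = 0.046) at Day 7 and -0.96 (SE 0.29, edgeR adjusted p = 0.040) at 4 weeks, close to the threshold each time. Fits of a single time point lost the Day 7 and 4-week calls (adjusted p of 0.084 and 0.078) and gained one at Day 3 (0.028), as did DESeq2 at Day 3 (0.024). Each of the Day 7 and 4-week calls remained in 3 of the 12 fits without 1 library, and the fold change was -0.62 at Day 7 without control replicate 1 of that time and -0.47 at 4 weeks without control replicate 2.

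Over the 3 time points together, each Sprouty gene reached the smallest two-sided p that an exact permutation of treatment labels within time points allows, p = 0.0093. A single time point of 2 against 2 libraries could not go below 0.33 in such a test. In all 3 genes both *Sox17*-*Erg* libraries were below both control libraries at all 3 times, which held for 13.6% of the 15506 genes, while 14.6% were higher in this way and none of the 9 was among them. With a replicate block within each time point, *Spry1* was also called lower at Day 3 and Day 7 and *Spry4* at Day 3 (edgeR adjusted p = 0.039, 0.033 and 0.037). With this block 1619 and 2065 of all genes were lower at Day 3 and Day 7, in place of 795 and 1230. Summed over the 3 genes, the control libraries held 346 and 395 CPM at Day 3, 537 and 477 CPM at Day 7, and 536 and 667 CPM at 4 weeks. The same sum in *Sox17*-*Erg* was 199 and 277, 265 and 331, and 243 and 283 CPM. Mesothelial markers were lower beside them, with 1, 4 and 6 of 6 called. Cardiomyocyte markers were lower too, with 2, 1 and 5 of 6 called, and 1, 3 and 4 of 8 fibroblast markers were lower at the same times. The fibroblast list went both ways, since *Postn*, named here after its values were seen, was higher by 2.69 (SE 0.27, edgeR adjusted p = 0.00039) at Day 7 and by 4.74 (SE 0.30) at 4 weeks. The part of any of these lists in the Sprouty result was not tested.

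**Figure D2:**
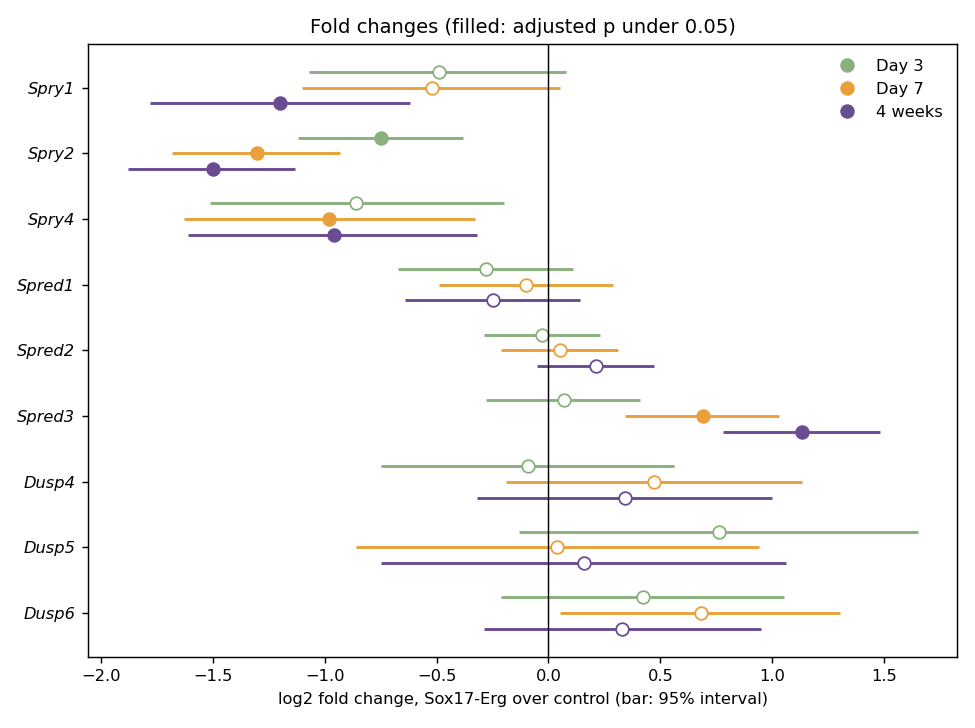
Log2 fold change of *Sox17*-*Erg* over control (horizontal axis) for each gene (vertical axis) at Day 3 in green, Day 7 in orange and 4 weeks in purple. Bars are 95% intervals of the edgeR fit and filled points have an adjusted p under 0.05. The filled points are *Spry2* at all 3 times, *Spry4* at Day 7 and 4 weeks and *Spry1* at 4 weeks on the left, and *Spred3* at Day 7 and 4 weeks on the right.

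Of the Spred family, *Spred3* was higher in *Sox17*-*Erg* at Day 7 and 4 weeks, and the other two genes were not called. *Spred3* (ENSMUSG00000037239, chr7:29158829-29170411, minus strand), the least characterized Spred gene, held 20.4 and 16.9 CPM in control at Day 3, 11.3 and 10.6 CPM at Day 7, and 9.05 and 7.52 CPM at 4 weeks. *Sox17*-*Erg* libraries held 19.5 and 19.5 CPM at Day 3, 19.4 and 15.9 CPM at Day 7, and 18.9 and 17.4 CPM at 4 weeks. The groups overlapped at Day 3 and were apart at Day 7 and 4 weeks, when both *Sox17*-*Erg* libraries were higher. The log2 fold change was 0.07 (SE 0.15, edgeR adjusted p = 0.81) at Day 3, 0.69 (SE 0.15, edgeR adjusted p = 0.016) at Day 7 and 1.13 (SE 0.15, edgeR adjusted p = 0.0011) at 4 weeks, a 2.18-fold higher level. The call at 4 weeks was kept in every alternative, while that at Day 7 was lost in the fit of Day 7 alone (adjusted p = 0.097) and without either control library or *Sox17*-*Erg* replicate 1 of that time (0.051 to 0.14). Over the 3 time points its exact permutation p was 0.028.

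*Spred3* was also the gene of the 9 whose effect differed between time points. The effect at 4 weeks exceeded that at Day 3 by 1.06 on the log2 scale (SE 0.22, edgeR adjusted p = 0.035), 1 of 9 genes, where 2.22% of all genes had such a positive difference. Without 1 library this difference ranged from 0.92 to 1.26 and kept its call in 5 of 12 fits. It was lost without control replicate 1 of Day 3, either *Sox17*-*Erg* library of Day 3 or any library of 4 weeks. The difference arose as *Spred3* fell in control by 0.77 from Day 3 to Day 7 (SE 0.15, edgeR adjusted p = 0.021) and by 1.17 from Day 3 to 4 weeks (SE 0.15, edgeR adjusted p = 0.0013), and changed by -0.11 in *Sox17*-*Erg* from Day 3 to 4 weeks (SE 0.15, edgeR adjusted p = 0.64, 95% interval -0.45 to 0.24). *Spred3* shares 202 exon bases with *Ggn*, a gene on the opposite strand that had 479 counts over all 12 libraries, and whether counting used the strand is not given in the sources used here.

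*Spred1* and *Spred2* were not called at any time. *Spred1* (ENSMUSG00000027351, chr2:117121374-117182279, plus strand), the gene of Legius syndrome, held 94.5 to 139 CPM in control and 99.6 to 120 CPM in *Sox17*-*Erg* libraries. Its log2 fold changes were -0.28, -0.10 and -0.25 at the 3 times, with a 95% interval at 4 weeks of -0.64 to 0.14. Control lay above *Sox17*-*Erg* at Day 3 and 4 weeks and overlapped with it at Day 7. *Spred2* (ENSMUSG00000045671, chr11:19924375-20024026, plus strand) stayed at 47.1 to 57.1 CPM in control and 49.4 to 66.9 CPM in *Sox17*-*Erg* libraries. Its fold changes were -0.03, 0.05 and 0.21, the 95% interval at 4 weeks was -0.05 to 0.47, and the groups overlapped at every time. Of its 31-base words, 4.2% also occur in *Gm14612*, so part of its reads could have been split. Because *Spred1* takes most of the family's counts, the family sum of 152 to 211 CPM in control and 169 to 189 CPM in *Sox17*-*Erg* libraries did not show the change of *Spred3*.

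**Figure D3:**
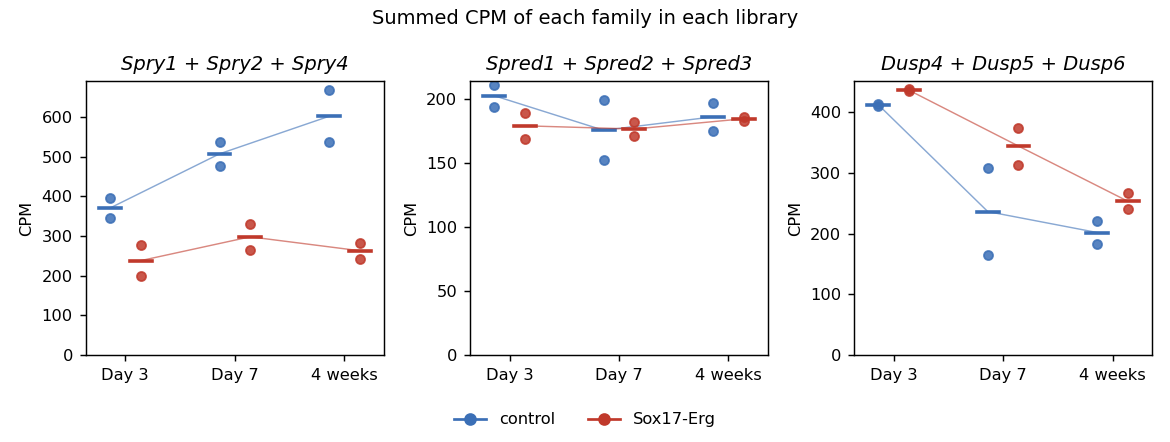
Summed CPM of each family (vertical axes, from 0) at the 3 time points (horizontal axes) with control in blue and *Sox17*-*Erg* in red; points are libraries and bars the means of 2. The Sprouty sums lie at 346 to 667 CPM in control and 199 to 331 CPM in *Sox17*-*Erg*, the Spred sums overlap at Day 7 and 4 weeks and lie at 169 and 189 CPM below 211 and 194 CPM in control at Day 3, and the Dusp sums are lower at 4 weeks than at Day 3 in both.

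In the fit of all 12 libraries, the 3 phosphatase genes were not called between *Sox17*-*Erg* and control at any time point by edgeR or DESeq2, and 1 of them, *Dusp6* at Day 7, had an unadjusted p under 0.05. With a replicate block within each time point, for which the labels give no shared isolation or day, edgeR called *Dusp5* (adjusted p = 0.015) and *Dusp6* (adjusted p = 0.043) higher at Day 3 and *Dusp6* (adjusted p = 0.0054) higher at Day 7. With this block 1973 and 2142 of all genes were higher at Day 3 and Day 7, in place of 1115 and 1470. *Dusp6* (ENSMUSG00000019960, chr10:99263231-99267489, plus strand) encodes a cytoplasmic phosphatase specific for ERK. Control libraries held 106 and 89.0, 125 and 64.4, and 115 and 106 CPM at the 3 times, and *Sox17*-*Erg* libraries 139 and 122, 178 and 125, and 145 and 133 CPM. *Sox17*-*Erg* was thus higher in mean at each time, without overlap at Day 3 and 4 weeks, and its lower Day 7 library was at the level of the higher control library. Between libraries of the same replicate number, *Sox17*-*Erg* was higher at each time. The log2 fold change was 0.42 (SE 0.28, edgeR adjusted p = 0.35) at Day 3, 0.68 (SE 0.28, edgeR adjusted p = 0.13) at Day 7 and 0.33 (SE 0.28, edgeR adjusted p = 0.44) at 4 weeks. Without control replicate 1 of Day 7 the Day 7 value was 1.21 and was called (edgeR adjusted p = 0.015), and it was also called with no filter on low counts, at 0.69 (edgeR adjusted p = 0.011). The exact permutation p over the 3 time points was 0.019. Of the 9 genes tested in this way the others had p = 0.093 for *Spred1*, 0.23 for *Dusp5*, 0.27 for *Spred2* and 0.30 for *Dusp4*, and none of the 9 exact p-values is adjusted for the number of tests. Libraries as separate as those of *Dusp6* were found at Day 3 and 4 weeks in the shares of all genes given above.

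*Dusp4* (ENSMUSG00000031530, chr8:34807297-34819894, plus strand), a nuclear phosphatase of ERK and other MAP kinases, fell with time in both treatments and was not called between them. It held 291 and 310 CPM in control and 273 and 291 CPM in *Sox17*-*Erg* at Day 3. By 4 weeks the values were 59.9 and 107 CPM in control and 111 and 100 CPM in *Sox17*-*Erg*. At Day 7 the control libraries stood apart from each other, at 169 and 94.2 CPM, beside 184 and 182 CPM in *Sox17*-*Erg*. From Day 3 to 4 weeks it fell by 1.85 on the log2 scale in control (SE 0.30, edgeR adjusted p = 0.0032) and by 1.41 in *Sox17*-*Erg* (SE 0.30, edgeR adjusted p = 0.0082), and these falls were not shown to differ (difference 0.44, SE 0.41, edgeR adjusted p = 0.68). The fall in control was called in every alternative, and that in *Sox17*-*Erg* lost its call without either *Sox17*-*Erg* library of 4 weeks. The fold change between the groups was -0.09, 0.47 and 0.34 at the 3 times, with a 95% interval at 4 weeks of -0.32 to 1.0.

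*Dusp5* (ENSMUSG00000034765, chr19:53529109-53542431, plus strand), an ERK phosphatase of the nucleus, was among the 2 lowest genes per length. At Day 3 it held 17.1 and 11.8 CPM in control and 26.8 and 22.3 CPM in *Sox17*-*Erg*. Later values were 13.9 and 5.91 CPM in control and 13.0 and 7.25 CPM in *Sox17*-*Erg* at Day 7, and 8.32 and 7.77 CPM and 10.3 and 7.59 CPM at 4 weeks. The groups were apart at Day 3 and overlapped afterwards. The Day 3 difference of 0.76 (SE 0.40, edgeR adjusted p = 0.23) was not called, and neither were those of 0.04 at Day 7 and 0.16 at 4 weeks. Within *Sox17*-*Erg* it fell by 1.45 from Day 3 to 4 weeks (SE 0.40, edgeR adjusted p = 0.024), and this call was lost without any 1 of the 4 *Sox17*-*Erg* libraries of those times. Within control the change was -0.85 (SE 0.40, edgeR adjusted p = 0.15).

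Over time within each treatment, 2 of the 9 fell and 1 rose in control from Day 3 to 4 weeks, where 12.6% and 13.9% of all genes fell and rose. In *Sox17*-*Erg* 2 fell, where 15.6% of all genes did, and 0 rose, where 15.1% did, with 1 at an unadjusted p under 0.05 and 1 called by DESeq2. Between Day 3 and Day 7, *Spred3* and *Dusp4* fell in control, 2 of 9 beside 4.06% of all genes, and 0 rose beside 4.7%, with 1 at an unadjusted p under 0.05 and 0 by DESeq2. *Dusp4* then changed by -1.19 (SE 0.30, edgeR adjusted p = 0.040), which 9 of the 12 fits without 1 library did not call. In *Sox17*-*Erg* over the same days edgeR called 0 of the 9, beside 2.04% of all genes rising and 1.38% falling, while 1, *Dusp5*, had an unadjusted p under 0.05 and was called by DESeq2. Between Day 7 and 4 weeks 0 of the 9 were called in control by edgeR or DESeq2, beside 0.174% of all genes rising and 0.219% falling, and 1, *Spred3*, had an unadjusted p under 0.05. Over the same weeks 0 were called in *Sox17*-*Erg* by either tool, beside 1.15% rising and 0.671% falling, and *Spred2* and *Dusp4* had an unadjusted p under 0.05.

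Tests of whether the effect of *Sox17*-*Erg* differed between times gave no other call by edgeR with its filter on low counts or by DESeq2. With no filter, edgeR also called *Spry2* between 4 weeks and Day 3 (adjusted p = 0.049). Between 4 weeks and Day 3, 0 of the 9 had a more negative effect by the test, beside 0.987% of all genes, and *Spry2* had an unadjusted p under 0.05. Between Day 7 and Day 3, 0 were called, beside 0.0322% of all genes with a positive and 0.0516% with a negative difference, and *Spry2* and *Spred3* had an unadjusted p under 0.05. Between 4 weeks and Day 7, 0 were called and 0 had an unadjusted p under 0.05, beside 0.0258% and 0.0129% of all genes.

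The order of the levels differed between the groups. Levels between genes are compared only per kilobase of exon (CPM per kb). In control at Day 3 the order was *Dusp4* at 110, *Spry1* at 64.3, *Spry2* at 40.2, *Dusp6* at 31.1, *Spry4* at 21, *Spred1* at 19.7, *Spred2* at 11, *Dusp5* at 5.85 and *Spred3* at 3.00 CPM per kb. At 4 weeks control was led by *Spry1* at 116 ± 6.89 (SD, n = 2) and *Spry2* at 56.1 ± 6.47 CPM per kb, followed by *Dusp6* at 35.3 ± 1.98, *Spry4* at 30.7 ± 12.5 and *Dusp4* at 30.4 ± 12.1, which differed by less than their spread. In *Sox17*-*Erg* at 4 weeks, *Spry1* at 50.5 ± 8.70 and *Dusp6* at 44.3 ± 2.72 CPM per kb were within the spread of each other, *Dusp4* was at 38.6 ± 2.96, and *Spry2* at 19.8 ± 0.904 stood below both phosphatases. *Spry4* at 15.7 ± 0.220 and *Spred1* at 15.4 ± 0.848 were not separated. *Dusp5* and *Spred3* stayed at the bottom, at 3.25 and 1.33 CPM per kb in control and 3.62 and 2.92 CPM per kb in *Sox17*-*Erg*.

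Other genes of the pathway were taken from lists of its components. Among 18 transcripts that rise with ERK activity in many cells, 3 were higher and 0 lower at Day 3, 3 higher and 0 lower at Day 7, and 8 higher and 1 lower at 4 weeks. DESeq2 called 4 higher and 1 lower, 8 and 0, and 8 and 2 at the same times, and 1 of them had an unadjusted p under 0.05 in the lower direction at Day 3 and 1 at Day 7. With a replicate block within each time point, edgeR called 6, 12 and 12 of the list higher and 1, 0 and 2 lower, when 1973, 2142 and 2405 of all genes were higher. The list's median log2 fold change was 0.25, 1.10 and 1.19, beside at most 0.014 in size over all genes. *Egr3*, an immediate early zinc finger factor, was at 1.08 and 0.895 CPM in control and at 26.9 and 11.04 CPM in *Sox17*-*Erg* at 4 weeks, a log2 fold change of 4.25 (SE 0.66, edgeR adjusted p = 0.0021) after 3.42 (SE 0.65) at Day 7. *Egr2*, of the same family, was higher by 2.49 (SE 0.56) at 4 weeks and *Ier3* by 1.63 (SE 0.42) at Day 7. *Phlda1* was lower at 4 weeks by -0.83 (SE 0.23, edgeR adjusted p = 0.029), and without 1 library its fold change ranged from -1.11 to -0.63. At Day 3 the largest of the called genes were *Epha4*, an ephrin receptor, at 1.93 (SE 0.38) and *Myc* at 1.46 (SE 0.22). The 8 of 18 higher at 4 weeks stood beside 11.9% of all genes. Leaving out any 1 library of 4 weeks lowered this count and also the count over all genes. Such a fit leaves 1 library in a group, so the part of single libraries in the 8 cannot be read from it. Without 1 library the 4-week fold change ranged from 3.46 to 4.72 for *Egr3* and from 2.12 to 2.76 for *Egr2*. Summed over the list, *Sox17*-*Erg* held 2750 and 1610 CPM at 4 weeks and control 1320 and 1140 CPM, so replicate 1 stood above the rest. At Day 3 and Day 7, when 7.19% and 9.48% of all genes were higher, the count without 1 library ran from 0 to 3 and from 1 to 4. The Day 7 calls of *Egr3* and *Ier3* were lost in the fit of Day 7 alone.

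Among 7 other MAP kinase phosphatases tested, 1, 2 and 3 were higher at the 3 times and 0 lower, beside 7.19%, 9.48% and 11.9% of all genes higher, with 0, 1 and 0 at an unadjusted p under 0.05 in the lower direction and 0, 1 and 0 called lower by DESeq2. *Dusp16*, a phosphatase of JNK and p38, was higher by 1.38, 1.42 and 1.40 (SE 0.21 each), from 7.99 to 10.9 CPM in control to 20.8 to 33.4 CPM in *Sox17*-*Erg*, and without 1 library its call was lost once, at Day 3. *Dusp8*, of the same subgroup, was higher by 2.83 (SE 0.52) at Day 7 and 2.77 (SE 0.50) at 4 weeks, from at most 1.85 CPM in control to at least 4.7 CPM in *Sox17*-*Erg* at these times. Both of these calls of *Dusp8* were kept without each library, and that of Day 7 was lost in the fit of Day 7 alone. *Dusp10*, named here after its values were seen, completed the 3 at 4 weeks with 1.06 (SE 0.28), a call lost in the fit of 4 weeks alone and kept in 9 of 12 fits without 1 library.

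Of 10 other brakes on Ras and ERK, 1 was higher and 2 lower at Day 3, 3 higher and 1 lower at Day 7, and 4 higher and 1 lower at 4 weeks. All genes were higher in 7.19%, 9.48% and 11.9% and lower in 5.13%, 7.93% and 11% at these times, so that 1 of 10 lies near those shares. Without 1 library the counts were 0 to 1 higher and 0 to 3 lower at Day 3, 1 to 4 and 0 to 2 at Day 7, and 3 to 4 and 0 to 1 at 4 weeks. The 2 lower ones at Day 3 were *Errfi1*, an inhibitor of the EGF receptor, at -1.70 (SE 0.28, edgeR adjusted p = 0.0082), and *Il17rd*, also called Sef, an inhibitor of FGF signaling, at -0.97 (SE 0.15, edgeR adjusted p = 0.0063). *Errfi1* stood at 343 and 382 CPM in control and 85.2 and 138 CPM in *Sox17*-*Erg* at Day 3, and was lower again at 4 weeks by -0.94 (SE 0.28), a call kept in 6 of 12 fits without 1 library. *Rasal2*, which speeds the inactivation of Ras, was higher at each time, by 0.80, 0.90 and 1.30 (SE 0.15 each), and *Dab2ip*, of the same class, by 0.81 (SE 0.13) at 4 weeks. *Nf1*, which encodes the neurofibromin that Spred proteins recruit, was higher by 0.45 (SE 0.10) at Day 7, a call lost in the fit of Day 7 alone and kept in 8 of 12 fits without 1 library, and *Lrig1*, a receptor inhibitor, was lower by -0.77 (SE 0.16).

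Of the 18 genes of the cascade itself, 1 was higher and 0 lower at Day 3, 3 higher and 1 lower at Day 7, and 3 higher and 0 lower at 4 weeks. These counts lie near the shares of all genes just given, and without 1 library 0 to 1, 0 to 2 and 1 to 3 of the 18 were higher. In the lower direction 1 had an unadjusted p under 0.05 at Day 3 and 1 at 4 weeks, and DESeq2 called 1 and 0. *Mapk3*, which encodes ERK1, was higher by 0.89 (SE 0.14, edgeR adjusted p = 0.0020) at 4 weeks, at 214 and 183 CPM beside 106 and 107 CPM. The exchange factor gene *Sos1* was higher by 0.40 (SE 0.11, edgeR adjusted p = 0.045) at Day 3, a call lost in 3 other settings and kept in 1 of 12 fits without 1 library, and by 0.50 (SE 0.11) at 4 weeks. At Day 7 *Hras* was higher by 0.62 (SE 0.15), *Mapk3* by 0.47 (SE 0.14), and the adaptor *Shc1* lower by -0.42 (SE 0.11), each of which the fit of Day 7 alone did not call. Without 1 library these Day 7 calls were kept in 9, 2 and 6 of 12 fits, and RLE factors also lost that of *Mapk3*. These are RNA counts, and no phosphorylated ERK was measured in these files.

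**Figure D4:**
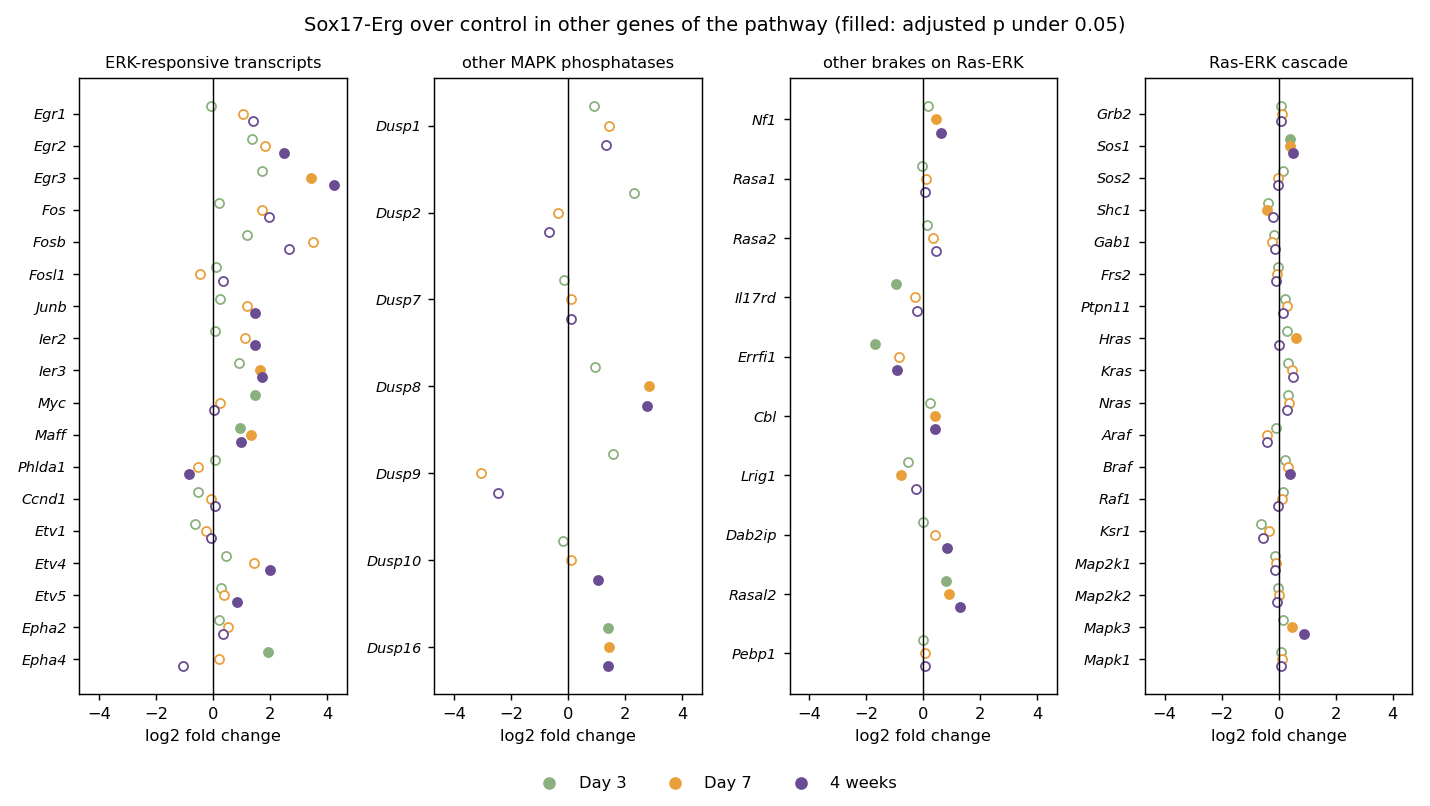
Log2 fold change of *Sox17*-*Erg* over control (horizontal axes) for the 4 other lists of pathway genes (vertical axes), at Day 3 in green, Day 7 in orange and 4 weeks in purple, with filled points at an adjusted p under 0.05. In the fit of all 12 libraries at 4 weeks, 8 of 18 ERK-responsive transcripts, 3 of 7 other phosphatases, 4 of 10 other brakes and 3 of 18 cascade genes are filled to the right of 0.

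The genes whose log2 CPM followed each of the 9 most closely over the 12 libraries were named by Pearson's r, as a description over libraries that share 6 groups. *Spry2* was most like *Tnfaip8* and *Rbm43* (r = 0.98 each), *Spry1* most like *Abca8b* (0.97) and *Ebf3* (0.96), and *Spry4* most like *Lipo3* (0.97) and *Cdkl2* (0.95). *Spred3* was followed by *Lrrc8c* and *Cd276* (0.98 each), *Spred1* by *Mapk11* (0.91) and *Cept1* (0.88), and *Spred2* by *Acbd5* (0.94) and *Rock1* (0.93). For the phosphatases they were *Gltp* and *Ttyh2* (0.98 each) for *Dusp4*, *Cth* (0.99) and *Dpy30* (0.97) for *Dusp5*, and *Rgs2* (0.94) and *Mzt1* (0.93) for *Dusp6*. Among the 9 themselves, *Spry2* and *Spry4* were most alike at 0.87, and *Spry1* and *Spred3* ran most against each other at -0.89. No gene of the 9 was among the 2 nearest of another.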

How the data were processed

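RNA was extracted with TRIzol, made into stranded mRNA libraries with the Kapa kit and sequenced with paired-end reads. Per the labels, reads were demultiplexed with bcl2fastq 2.20.0 and the build was mm10. High GC stretches were trimmed by the authors with BBDuk, and transcripts quantified with Salmon, whose version is not given in the sources used here; they deposited estimated counts per Ensembl gene, rounded to whole numbers and not scaled for depth. Of 35727 genes, 35422 matched the GENCODE M21 annotation of GRCm38, the same assembly, which gave symbols, positions and exon lengths. RefSeq promoter windows were matched by symbol for 7 of the 9 genes.

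Samples were grouped by the treatment and time in their titles. In R 4.3.3, edgeR 4.0.16 was fitted to all 12 libraries with 1 mean per group, TMM factors and filterByExpr (minimum count 10, minimum total 15; 15506 genes kept), leaving 6 residual degrees of freedom, and its quasi-likelihood test was used with Benjamini-Hochberg adjustment over all genes tested. CPM are TMM-normalized, log2 CPM had a prior count of 2, and errors cover these libraries only. With 2 libraries a group, SDs are imprecise, and intervals are at 95%. The test was checked on simulated counts before use. The 9 genes and all gene lists were chosen with earlier results of these data known, and adjusted p-values were never taken over a list alone. Named beside the 9 were at most the 2 most increased and 2 most decreased called genes of each other list at each time, *Sox17* and *Erg*, the 2 most alike genes of each, and genes whose effect differed between times. *Spry3* was not used here. Alternatives were RLE and upper-quartile factors, DESeq2 1.42.0, no filter, a CPM of at least 1 in 2 libraries, fits of single time points, replicate blocks and leaving out each library, where a lone library is assumed to vary like the other groups. No reads were mapped again.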

Additional observations from a re-analysis of the deposited data

Results flagged for a closer look

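Groups held 2 libraries, too few for a test of outlying samples. Of the 9 genes and the 53 other pathway genes tested, 4 had an effect of *Sox17*-*Erg* that differed between 4 weeks and Day 3 in edgeR's interaction test, 2 with a positive and 2 with a negative difference, beside 2.22% and 0.987% of all genes. For *Spred3* the difference was 1.06 on the log2 scale (SE 0.22, edgeR adjusted p = 0.035), with the values given above. *Dab2ip* had a difference of 0.83 (SE 0.18, edgeR adjusted p = 0.042), from 77.7 and 80.2 CPM in control and 78.2 and 78.3 CPM in *Sox17*-*Erg* at Day 3 to 84.97 and 68.7 CPM and 145 and 125 CPM at 4 weeks, and was called in 4 of 12 fits without 1 library. *Myc* had a difference of -1.43 (SE 0.30, edgeR adjusted p = 0.037), from 23.2 and 19.2 CPM in control and 66.8 and 50.5 CPM in *Sox17*-*Erg* at Day 3 to 32.1 and 26.4 CPM and 36.0 and 23.8 CPM at 4 weeks, and was called in 1 of 12. *Epha4* had a difference of -3.00 (SE 0.52, edgeR adjusted p = 0.019), from 4.29 and 3.79 CPM in control and 18.6 and 12.3 CPM in *Sox17*-*Erg* at Day 3 to 46.7 and 29.1 CPM and 19.4 and 16.9 CPM at 4 weeks, and was called in 6 of 12. No explanation of these differences was tested.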

How the results depend on the processing

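The log2 fold changes of the 9 genes between *Sox17*-*Erg* and control were computed under 8 other settings and without each of the 12 libraries. Of the values under other settings, 199 kept their direction and side of the threshold, 12 gained a call, 3 lost one and 2 changed sign, and of the 324 without 1 library, 283 kept both, 3 gained a call, 26 lost one and 12 changed sign. Those that changed sign were not called in either fit: with upper-quartile factors *Spred3* at Day 3 was -0.0020 and *Dusp5* at Day 7 -0.0026. Without 1 library the values ranged from -0.10 to 0.0033 for *Spred2* and -0.10 to 0.21 for *Spred3* at Day 3, from -0.33 to 0.16 for *Spred1*, -0.02 to 0.10 for *Spred2* and -0.45 to 0.76 for *Dusp5* at Day 7, and from -0.01 to 0.83 for *Dusp4* and -0.09 to 0.33 for *Dusp5* at 4 weeks. Among the other pathway genes named, none changed sign in these settings.

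Counts of called genes moved as follows, and the cause was not tested. Lower at Day 3 were 2 with DESeq2, with no filter or in the fit of Day 3 alone, each time *Spry2* and *Spry4*. Over all genes 1245, 1333 and 986 were lower in these settings, in place of 795. At Day 7, 2 were higher with no filter (*Spred3* and *Dusp6*), where 1678 of all genes were higher in place of 1470. In the fit of Day 7 alone 0 were higher and 1 was lower. Over all genes that fit called 609 higher and 479 lower, in place of 1470 and 1230. With no filter 6 changed in control from Day 3 to 4 weeks, and 2 effects differed between 4 weeks and Day 3 (*Spred3* and *Spry2*). Over all genes 732 positive and 447 negative differences of effect were then called, in place of 345 and 153. In *Sox17*-*Erg*, no filter gave 1 change between Day 7 and 4 weeks (*Dusp4*) and 1 between Day 3 and Day 7 (*Dusp5*). DESeq2 also gave 1 for the last. Over those days 1107 of all genes rose and 739 fell with no filter, and 931 and 634 with DESeq2, in place of 317 and 214. Without 1 library the counts ran from 0 to 2 lower at Day 3, 0 to 1 higher and 1 to 2 lower at Day 7, 1 to 3 lower at 4 weeks, 0 to 2 changed in control from Day 3 to Day 7, 0 to 2 with a different effect between 4 weeks and Day 3, and 2 to 4 in control and 0 to 3 in *Sox17*-*Erg* between Day 3 and 4 weeks.

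At the 3 times, libraries of the 2 treatments with 1 number deviated from their group means with correlations across genes of 0.19, 0.30 and 0.17, and libraries of different times with -0.14 to 0.22. With 2 pairs a comparison and no label that ties a number to an isolation or day, the numbers were not taken as pairs. The study's methods state that viruses for compared conditions were made on the same day, without tying that to these numbers. With a replicate block over all libraries, 2 genes were higher at Day 7 (*Dusp6* gained) and 1 changed in *Sox17*-*Erg* from Day 3 to Day 7, while *Spry1* at Day 7 gained a call (-0.54, edgeR adjusted p = 0.046). With a replicate block within each time point, 2 were higher (*Dusp5*, *Dusp6*) and 3 lower at Day 3. At Day 7 this block gave 2 higher (*Dusp6* gained) and 3 lower (*Spry1* gained), and it removed none of the calls between the groups. Over all genes it called 1973 higher and 1619 lower at Day 3, in place of 1115 and 795. At Day 7 it called 2142 and 2065 of all genes, in place of 1470 and 1230.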
